A study of Mus musculus
Mus spretus with 18 samples.

Results

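The genes described here encode alternative forms (isozymes) of 4 glycolytic enzymes: the hexokinases Hk1 and Hk2, the phosphofructokinases Pfkl and Pfkm, the aldolases Aldoa and Aldoc, and the pyruvate kinases Pkm and Pklr. They were taken by gene symbol from the expression table and from every splicing table of the study, so that all 8 of 8 were found among 38924 genes, together with 59 of 100198 skipped exon (SE) events in the tissue tables, 42 of 68887 SE events in the fibroblast tables and 1 of 2243 retained intron events. The rule itself uses gene symbols only. In the mm10 (GRCm38) assembly, RefSeq places Pklr at chr3:89136122-89146815, Hk2 at chr6:82725025-82774454, Aldoa at chr7:126795234-126800994, Pkm at chr9:59656576-59679372, Hk1 at chr10:62268855-62379920, Pfkl at chr10:77986947-78009807, Aldoc at chr11:78323073-78327781 and Pfkm at chr15:98092589-98132447. All 8 are protein-coding genes.

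Glycolysis breaks glucose down to pyruvate in the cytosol, and most of its steps are run by enzymes for which mammals keep more than 1 gene. Hexokinase traps glucose in the cell by phosphorylating it, phosphofructokinase makes the committed step to fructose 1,6-bisphosphate, aldolase splits that sugar, and pyruvate kinase makes the final ATP and pyruvate. The forms differ in kinetics and in their control by metabolites and hormones, and liver and kidney, which also make glucose, carry forms of their own, Pklr among them. From Pkm, splicing makes PKM1 or PKM2 by using either of a pair of mutually exclusive exons, exon 9 for PKM1 and exon 10 for PKM2. PKM1 is the form of muscle and brain, and PKM2 that of embryonic and proliferating cells.

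The RNA came from F1 hybrids of a C57BL/6J mother and a SPRET/EiJ father, so every cell carried 1 allele of each strain. Cerebral cortex, heart, kidney, lung, spleen and liver were taken from 2 female mice aged 8 weeks, which the organs share (2 libraries of each), embryonic stem cells (ESC) from 2 independent clones grown with 2i and LIF, and fibroblasts from a single F1 line treated for 4 h with 0.1 µM pladienolide B (PladB), a small molecule that binds the SF3B complex of the spliceosome, or with the solvent DMSO (2 libraries each). The paper took its liver data from an earlier study of the same animals, so for liver the tissue and the study cannot be told apart. Cortex, heart and kidney were sequenced with longer reads than lung, spleen and ESC, and the authors trimmed these. The labels of the liver libraries write the mother's strain as C57BL/7J and C57BL/8J. Nothing states that the fibroblast libraries came from separate cultures, so p-values there measure the spread between libraries, which may be technical. The groups rest on 2 libraries each, the organs are mixtures of cell types, and in such samples fewer cells of a type and less RNA per cell cannot be told apart.

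Expression was given as TPM, a share of the library's transcripts corrected for gene length, and splicing as counts of junction reads that include or skip an exon, from all reads and from the reads assigned to either allele. Counts over all SE events summed to between 46558287 and 129496306 per tissue library and to between 129067054 and 151755602 per fibroblast library. Events share junctions, so a read can count more than once in these sums. On 1 allele the counts of the tissue libraries summed to between 10338947 and 46793808. Of the 4 markers fixed for each tissue, all 4 were highest in their own tissue in each of the 7 tissues, and 3 of 4 were highest in the fibroblasts. Heart markers (Myh6, Tnnt2, Actc1, Nppa) summed to 987 and 771 TPM in the lung libraries, against 52060 and 52530 TPM in heart.

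The hexokinase genes had different tissues of highest expression. Hk1, the form of brain and red blood cells, was highest in cortex with 132 and 146 TPM, followed by heart with 74.8 and 69.4 TPM and kidney with 68.5 and 60.3 TPM. It was lowest in liver with 0.695 and 0.891 TPM. Heart and kidney did not differ beyond their spread (log2 difference 0.17, adjusted p = 0.406), nor did ESC and spleen (0.13, adjusted p = 0.466). Against the mean of the other 6 tissues, on the log2(TPM + 0.1) scale used throughout, Hk1 was higher in cortex by 2.50 (SE 0.12, adjusted p = 2.67e-08, limma) and lower in liver by 6.00 (log2 difference -6.00, SE 0.12, adjusted p = 1.09e-10).

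Hk2, the insulin-responsive form of muscle and fat, stood at 187 and 142 TPM in the ESC clones and at 163 and 156 TPM in heart. They lay above every library of the other 5 tissues, of which the next was spleen with 9.74 and 13.1 TPM. Cortex, where Hk1 was highest, held 1.76 and 1.75 TPM of Hk2. ESC and heart did not differ (log2 difference 0.03, adjusted p = 0.920), and both were higher than the mean of the other tissues, ESC by 4.88 and heart by 4.84 (SE 0.19 for each, adjusted p = 7.68e-09 and 2.22e-08). Of the summed TPM of Hk1, Hk2 and Hk3, Hk1 made up 98.1% ± 0.16 (SD, n = 2, as for all values of this kind) in cortex and 95.1% ± 0.87 in kidney, and Hk2 68.5% ± 0.32 in heart and 78.7% ± 3.3 in ESC. In liver the 3 genes summed to 2.59 and 3.86 TPM, of which Hk3, the leukocyte form, made up 61.3% ± 0.51. Spleen was mixed, with Hk1 at 55.2% and 56.7% in its libraries, Hk2 at 15.8% ± 0.035 and Hk3 at 28.2% ± 1.0.

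Of the members Pfkm and Pfkl, Pfkm, the muscle form, had the wider range over tissues. Heart held 1226 and 1156 TPM of Pfkm and cortex 425 and 456 TPM, above all other tissue libraries, which lay between 12.3 and 79.8 TPM. Heart was higher than the mean of the other tissues by 4.45 (SE 0.14, adjusted p = 4.24e-09). Lung and ESC did not differ (log2 difference 0.12, adjusted p = 0.558), nor did ESC and spleen at the threshold (0.42, adjusted p = 0.0555). Pfkl, the liver form by name, was not highest in liver: it was lowest there, at 15.1 and 16.05 TPM, and highest in cortex with 112 and 131 TPM and in heart with 117 and 115 TPM. Pfkl held the largest share of phosphofructokinase TPM in liver, 54.2% ± 1.7, ahead of Pfkm (43.6% ± 1.8) and Pfkp (2.18% ± 0.059). This was not particular to liver: Pfkl made up 54.9% ± 0.74 in DMSO and 57.7% ± 0.23 in PladB fibroblasts. In spleen Pfkl made up 45.9% and 38.0% and Pfkm 29.1% and 41.6%. In heart 89.9% ± 0.33 of phosphofructokinase TPM was Pfkm, and in ESC 45.4% ± 7.2 was the platelet form Pfkp. Kidney and lung held Pfkl and Pfkm in similar shares, 41.1% ± 1.5 and 45.2% ± 1.1 in kidney and 39.1% ± 0.11 and 43.3% ± 0.49 in lung.

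The aldolase genes differed in their range over tissues, which was the widest of the members for Aldoc (11.07 in log2) and narrower for Aldoa (5.50). Aldoc, the form of brain and especially of astrocytes, reached 609 and 588 TPM in cortex, and in every other tissue it stayed between 0.174 and 17.4 TPM. Cortex was higher than the mean of the other tissues by 7.17 (SE 0.22, adjusted p = 1.01e-09), and heart, at 0.183 and 0.174 TPM, was lower (log2 difference -5.75, SE 0.22, adjusted p = 1.63e-08). The astrocyte markers Aldh1l1, Slc1a3, Slc1a2 and Gfap, all 4 measured and none at 0, summed to 1023 and 1044 TPM in cortex, to 750 and 632 TPM in liver and 335 and 295 TPM in kidney, where Aldh1l1 made most of the sum, and to 7.48 to 42.9 TPM in the remaining tissues. Gfap stood at 88.5 and 94.8 TPM in cortex and at most at 1.69 TPM in any other tissue; their part in the Aldoc values was not tested. Aldoa, the muscle form that most tissues express, was highest in heart with 2351 and 2247 TPM, then in cortex with 1307 and 1464 TPM and in ESC with 1020 and 1081 TPM. Every step down its order of tissues passed the p-value (adjusted p at most 0.0153, where 73.6% of all comparisons over the 21 pairs of tissues passed it), ending in liver with 53.7 and 47.7 TPM.

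Aldoa led the pair in every tissue. Of the summed TPM of Aldoa and Aldoc, Aldoc made up 30.2% ± 2.2 in cortex and 12.1% ± 1.4 in liver, where both genes were low. In kidney, lung, spleen, ESC and heart its share was 2.03% ± 0.28 or less.

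Of the pyruvate kinase genes, Pklr led in liver and Pkm in every other tissue. Pkm held 1354 and 1657 TPM in ESC, 1240 and 1349 in cortex and 1213 and 1169 in heart, and neighbours among these did not differ (adjusted p = 0.124 and 0.384). Kidney, spleen and lung formed a lower set between 311 and 419 TPM, again without a difference between neighbours (adjusted p = 0.250 and 0.180). Liver held 7.94 and 9.04 TPM, lower than the mean of the other tissues (log2 difference -6.32, SE 0.09, adjusted p = 2.64e-11). Pklr, the liver and red blood cell gene, was highest in liver with 136 and 144 TPM, followed by kidney with 38.1 and 35.1 TPM and spleen with 12.2 and 48.0 TPM. In cortex, heart, lung and ESC it stayed at or below 0.548 TPM, and 1 heart library listed it at 0. Pklr made up 94.3% ± 0.29 of pyruvate kinase TPM in liver, 8.39% ± 0.072 in kidney and 7.78% ± 6.6 in spleen.

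Pklr in spleen differed by 3.94 times between the replicates, the largest replicate ratio of the members in that organ. The erythroid markers used here (Alas2, Hba-a1, Epb4.2 and Slc4a1, with none at 0 in both libraries of a tissue) moved with it: their summed TPM was 373 in the first and 1378 in the second spleen library, a ratio of 3.70, with Slc4a1, the red cell anion exchanger, at 23.6 and 135 TPM. Over the tissue libraries their sum ranged from 0.290 TPM in ESC to 1378 TPM in spleen. It was 767 and 564 TPM in lung and 466 and 664 TPM in heart, where Pklr was at or below 0.548 TPM. In kidney it was 131 and 142 TPM, in liver 79.05 and 54.76 TPM and in cortex 8.795 and 12.52 TPM. The part of these cells in the Pklr value was not tested. Spleen was higher in Pklr than the mean of the other tissues by 3.86 (SE 0.39, adjusted p = 1.01e-05), by 2.88 without the second spleen library (adjusted p = 2.73e-05) and by 4.85 without the first (adjusted p = 1.94e-06).

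**Figure D1:**
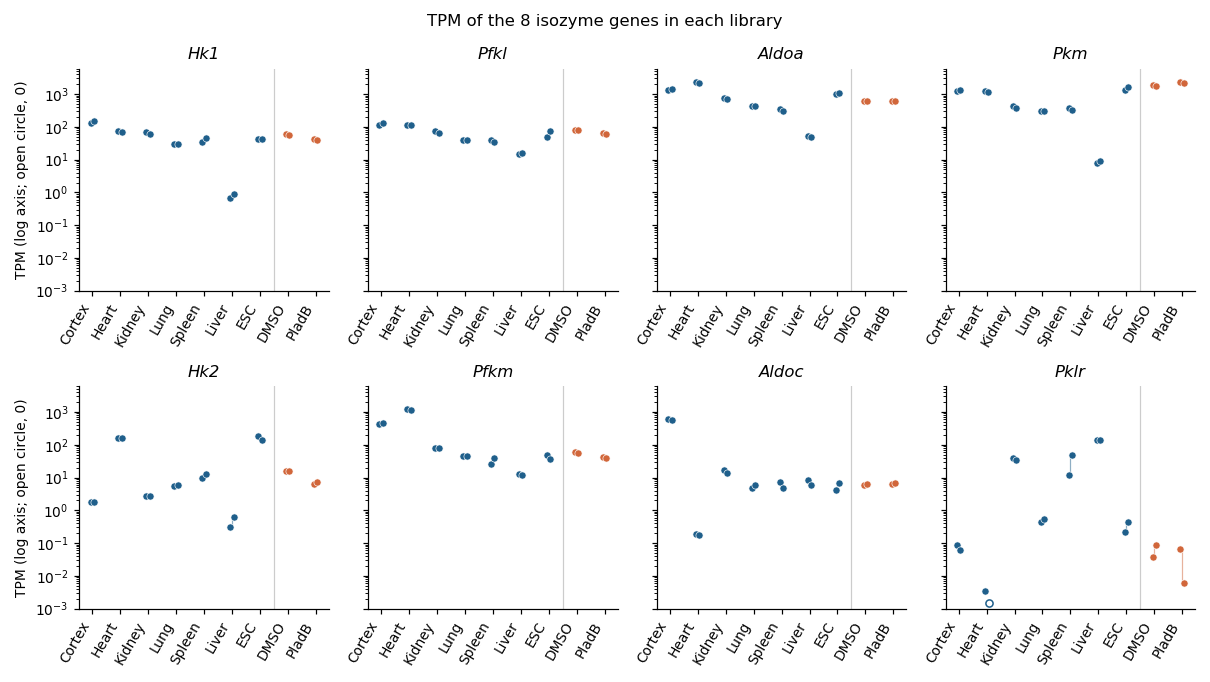
TPM of each of the 8 genes (log axis) in the 18 libraries, with 2 points per group, blue for tissues and orange for the fibroblast line; the open circle marks a value of 0. Liver is the lowest tissue for Hk1, Hk2, Pfkl, Pfkm, Aldoa and Pkm and the highest for Pklr, and Aldoc stands at 609 and 588 TPM in cortex with every other library at 17.4 TPM or less.

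Counted over all 8 genes and 7 tissues, 36 of 56 comparisons passed an adjusted p of 0.05 and a log2 difference of 1, 20 of them higher and 16 lower in the tissue named. Over all 21925 genes tested the same rule called 52.2% of comparisons. In cortex 6 of 8 members were higher and 2 lower (Hk2 and Pklr), against 35.4% and 20.2% of all genes. In heart 6 were higher and 2 lower (Aldoc and Pklr), against 11.6% and 37.5% of all genes. In liver Pklr was higher and 6 members were lower, against 7.97% and 67.4% of all genes, and the low share of higher genes there went with a median log2 difference of all genes of -1.52. The liver members stood lower still than that median, at a median of -3.63. In heart the median of all genes was -0.72 and that of the members 1.69, and in cortex the values were 0.38 and 1.82.

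In the other tissues fewer members passed. Kidney had 3 higher (Hk1, Aldoc, Pklr) and 1 lower (Hk2), against 16.6% and 18.6% of all genes. ESC had 3 higher (Hk2, Aldoa, Pkm) and 2 lower (Pfkm, Pklr), against 35.7% and 25% of all genes. Spleen had 1 higher (Pklr) and 1 lower (Pfkm), against 26.7% and 22.1% of all genes. Lung had 0 higher and 2 lower (Pfkm, Pklr), against 25.8% and 14.9% of all genes by limma. With no limit on the size of the difference, 7 of the 8 members passed the adjusted p in lung, as did 15426 of 21925 genes. With every library centred on its own median the 56 comparisons gave 17 higher and 23 lower; lung then had 6 lower members and spleen 4, Aldoc in liver turned from a log2 difference of -0.31 that did not pass to 1.48 that passed, and Pfkl in liver (-2.10) no longer passed (-0.32). Among the calls nearest the limit, Aldoc in kidney fell below it when any 1 of 5 libraries was left out (0.83 to 0.99), Pfkm in ESC without the second ESC clone and Pfkm in lung without the second spleen library (-0.99), and Aldoc in ESC rose past it without the second ESC clone (-1.13).

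**Figure D2:**
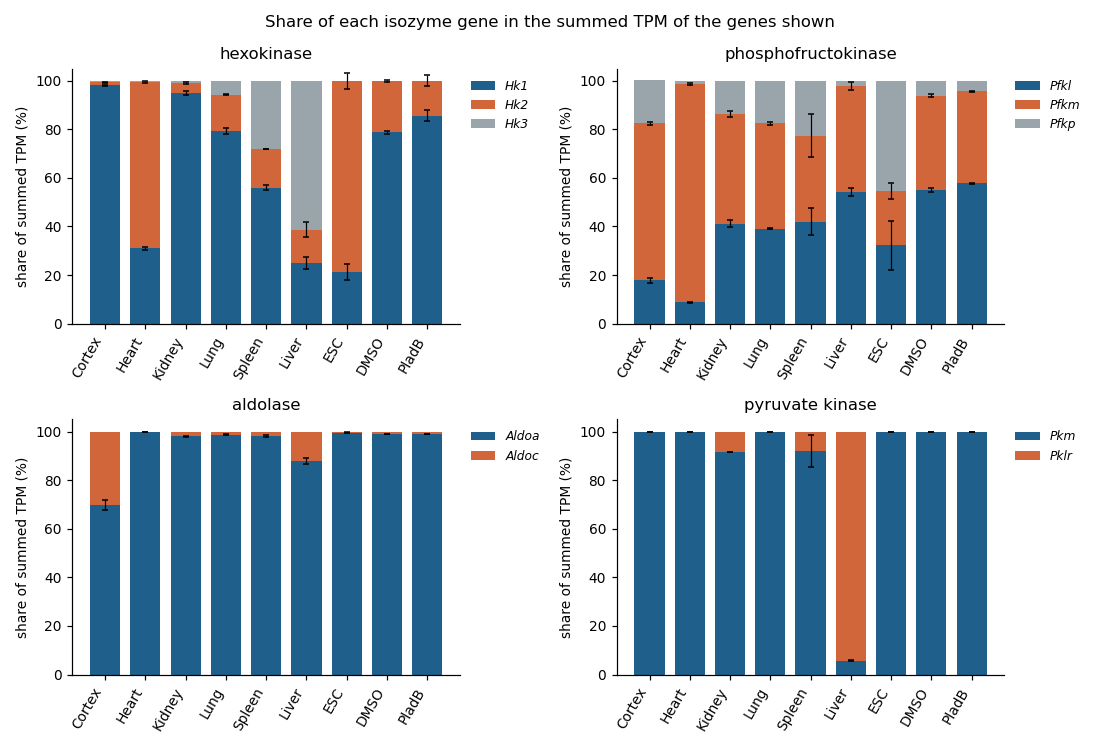
Mean share (%) of each isozyme gene in the summed TPM of the genes shown for its enzyme, in 7 tissues and the DMSO and PladB fibroblasts; bars are stacked, error bars are the SD of 2 libraries, and Hk3 and Pfkp are shown beside the members. The leading gene changes between tissues: Hk2 holds 68.5% of the hexokinase genes shown in heart and 78.7% in ESC, Hk1 98.1% in cortex, and Pklr 94.3% of pyruvate kinase in liver.

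The 23 other genes of the pathway that were followed (other glycolytic enzymes, glucose transporters, the Pfkfb regulators, lactate dehydrogenases and the fructose bisphosphatases) passed in 102 of 161 comparisons, 44 higher and 58 lower, as against 52.2% of comparisons over all genes. The 6 with the widest range over tissues are given with their values. Fbp1, which reverses the phosphofructokinase step in gluconeogenesis, held 1130 and 1143 TPM in kidney and 884 and 881 in liver and at most 3.97 elsewhere. Pgam2, the muscle phosphoglycerate mutase, stood at 1361 and 1341 TPM in heart and was listed at 0 in both liver libraries. Eno2, the neuronal enolase, stood at 556 and 586 TPM in cortex and at most at 17.6 in the other tissues. Slc2a3, a high-affinity glucose transporter, stood at 726 and 907 TPM in ESC and was called higher in cortex (61.1 and 68.8 TPM) and spleen (26.3 and 25.9 TPM) too. Ldhb, the heart form of lactate dehydrogenase, was called higher in 3 tissues, at 3806 and 3631 TPM in heart, 1637 and 1519 in kidney and 907 and 921 in cortex, and stood at 1.74 and 1.56 TPM in liver. Slc2a4, the insulin-responsive glucose transporter, stood at 364 and 345 TPM in heart and at 43.3 TPM or less in the other tissues.

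Across the 14 tissue libraries, the members' log2 levels varied together to different degrees; the libraries are 7 pairs of replicates, so the coefficients are descriptions. Aldoa and Pfkl (Pearson r = 0.96), Aldoa and Pkm (0.95) and Hk1 and Pkm (0.95) were the most alike pairs, and Aldoa and Pklr the most opposed (-0.81). Of the 21925 genes tested, those most like each member over the 14 libraries were Zfp827 and Amz2 for Hk1 (r = 0.985 and 0.982), Mrps28 and Fam96b for Hk2 (0.966 and 0.965), Slc25a12 and Rragd for Pfkl (0.987 and 0.986), Pde1c and Prkaca for Pfkm (0.993 and 0.977), Mast2 and 9130011E15Rik for Aldoa (0.991 and 0.989), Ube2w and Atg4c for Aldoc (0.976 and 0.968), Naa20 and Cep68 for Pkm (0.981 and 0.978), and 1300002K09Rik and Haao for Pklr (0.977 and 0.964).

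Most exons of these genes were included at nearly every chance. PSI (percent spliced in) is the share of transcripts that include an exon, from junction reads corrected for the number of junctions. Of the 59 SE events of the members in tissues, 57 had at least 20 reads in both replicates of some tissue, and 51 of these stayed above a PSI of 0.9, 2 below 0.1 and 4 in neither class. Hk2 had 13 events, Pfkm 12, Hk1 10, Pfkl 6, Aldoa 6, Aldoc 5, Pkm 4 and Pklr 3. After the events near 0 or 1 in every library were left out, 5 could be tested across tissues and 2 passed an adjusted p of 0.05 with a switch score (the largest difference of mean PSI between tissues) of at least 0.1, against 39.7% of all events tested.

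The first of the called events lay in Pkm, where exon 9 (chr9:59675029-59675195, plus strand) and exon 10 (chr9:59675568-59675734), of equal length, are each listed as an exon included or skipped between the same flanking exons. Reads that skip both exons were few and moved between replicates: cortex held 75 and 1 of them, heart 247 and 0, spleen 0 and 69, and ESC 61 and 199. Exon 9 against skipping thus had a PSI of 0.991 and 1.000 in cortex, 0.982 and 1.000 in heart, 0.844 in the second spleen library and 0.905 and 0.60 in ESC, with a switch score of 0.245 (adjusted p = 0.0271, quasi-binomial model). The call was lost without the second cortex library (adjusted p = 0.0537), without the second kidney library (0.0509) and without the second ESC clone (switch score 0.092), and when events near 0 or 1 were kept (0.163), where 7.53% of all events were called; without the first ESC clone the switch score was 0.398. Exon 10 against skipping had a switch score of 0.064 (adjusted p = 0.144), and it passed without the second heart library (0.128, adjusted p = 0.0206).

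Setting the exons against each other gave another picture. Of the reads that include exon 9 or exon 10, exon 9 took 86.8% and 87.4% in cortex and 88.8% and 88.0% in heart. In kidney the exon 9 share was 17.5% and 17.6%, in lung 27.5% and 24.2%, in spleen 13.1% and 11.5%, and in the ESC clones 7.47% and 2.59%. Cortex and heart did not overlap any other tissue, and the ESC clones lay below all others. Counting error was small beside these steps: the 95% Wilson interval was 86.3% to 87.3% in the first cortex library and 2.39% to 2.80% in the second ESC clone, intervals that cover counting error only. The share differed across the 6 tissues (largest difference of means 83.3 percentage points, adjusted p = 4.26e-11), a test added after the values were seen. Cortex and heart, with Pkm TPM not far below that of ESC, thus stood at the other end of the exon 9 share. The liver tables list neither event, and in the fibroblast line the exon 9 share was 16.4% and 16.3% with DMSO.

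**Figure D3:**
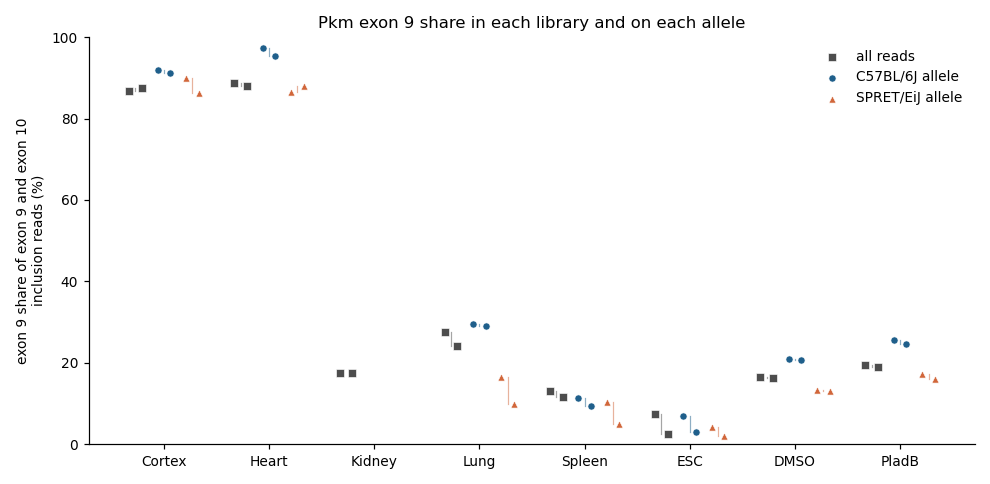
Share (%) of exon 9 among Pkm reads that include exon 9 or exon 10, for 2 libraries of each group, from all reads (squares) and from reads of the C57BL/6J (circles) and SPRET/EiJ (triangles) alleles; liver has no value and kidney no allelic value. Cortex and heart lie at 86.8% or more from all reads, all other groups at 27.5% or less, and the C57BL/6J allele lies above the SPRET/EiJ allele in all 14 libraries with both.

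The alleles of Pkm were set side by side in the 14 libraries whose allelic tables hold both exons. Like the test of this share across tissues, the tests between alleles and of the interaction were added and not planned. The exon 9 share was higher on the C57BL/6J allele in 14 of 14 libraries. In lung it was 29.6% and 29.1% on C57BL/6J and 16.6% and 9.95% on SPRET/EiJ, a mean difference of 16.1 points (adjusted p = 0.0344, and 0.0022 with the library as a block, as the alleles of a library share its RNA). In heart the values were 97.3% and 95.4% against 86.6% and 88.0%, a difference of 9.05 points (adjusted p = 0.00204, blocked 3.23e-07), and in DMSO fibroblasts 20.9% and 20.8% against 13.3% and 13.0%, a difference of 7.70 points (adjusted p = 7.07e-10). Heart and fibroblasts passed the p-value but stayed under the limit of 10 points, so lung was the single call, where 8.17% of all lung events were called. Lung lost it with a spread pooled over groups (adjusted p = 0.0911) and with events near 0 or 1 kept (0.118). Fits without 1 library were run with the pooled spread only, under which lung was already not called. The lung difference was then 19.1 points without its first library and 13 points without its second. Heart stood at 10.7 points without its second library. Cortex differed by 3.45 points (adjusted p = 0.163, blocked 0.0445), spleen by 2.70 (0.633) and ESC by 1.87 (0.798). Whether the allelic difference itself varied between tissues did not pass (interaction adjusted p = 0.952, blocked 0.150, quasi-binomial model). The unadjusted p was 0.0943, and 0.00264 with the block. On simulated exons the test without the block recovered 29% of PSI shifts of 0.2 and 79% of 0.4, with 7.69% false calls, so a smaller variation could be missed.

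The allelic Pkm values rest on part of the reads. Between 5.90% and 13% of the exon 9 and exon 10 reads of a tissue library, and between 27.2% and 35.2% of those of a fibroblast library, were assigned to an allele. In heart the C57BL/6J shares stood above the all-read shares of 88.8% and 88.0%, and in the first cortex library both alleles (91.9% and 89.9%) stood above the all-read 86.8%. Both alleles stood below all reads in the first spleen library (11.3% and 10.4% against 13.1%) and the second (9.46% and 4.96% against 11.5%). The same held in the first ESC clone (6.99% and 4.14% against 7.47%). In lung the all-read shares of 27.5% and 24.2% lay between those of the alleles. The part of read assignment in the allelic difference was not tested.

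The second called event was a 153-base exon of Aldoa (chr7:126797974-126798126, minus strand) with an upstream neighbour at chr7:126800002-126800036. Aldoa is known to start from several promoters with first exons of their own, and the annotation used here gives whole genes, not exons or UTRs. The PSI of the exon was 0.863 and 0.926 in the ESC clones, 0.577 and 0.642 in cortex, 0.527 and 0.566 in spleen, 0.470 and 0.502 in heart, 0.399 and 0.510 in kidney, 0.383 and 0.40 in lung and 0.274 and 0.180 in liver. The ESC clones lay above and the liver libraries below all others, and the tissues between them partly overlapped. The switch score was 0.667 (adjusted p = 3.95e-06), and it lay between 0.620 and 0.714 over all alternatives. Liver rested on the fewest reads, 74 and 51 that include the exon and 98 and 116 that skip it, against 336 and 151 in the first spleen library. In DMSO fibroblasts the PSI was 0.089 and 0.093, below every tissue.

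The value depended on the neighbour. Measured against the nearer upstream exon, which begins at position 126799045, the same Aldoa exon had a PSI between 0.018 and 0.056 in every tissue, since most Aldoa reads, such as 61673 in the first heart library, joined that nearer exon straight past it. The PSI of 0.863 or 0.926 in ESC therefore describes the reads joined to the farther exon and not Aldoa transcripts as a whole.

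**Figure D4:**
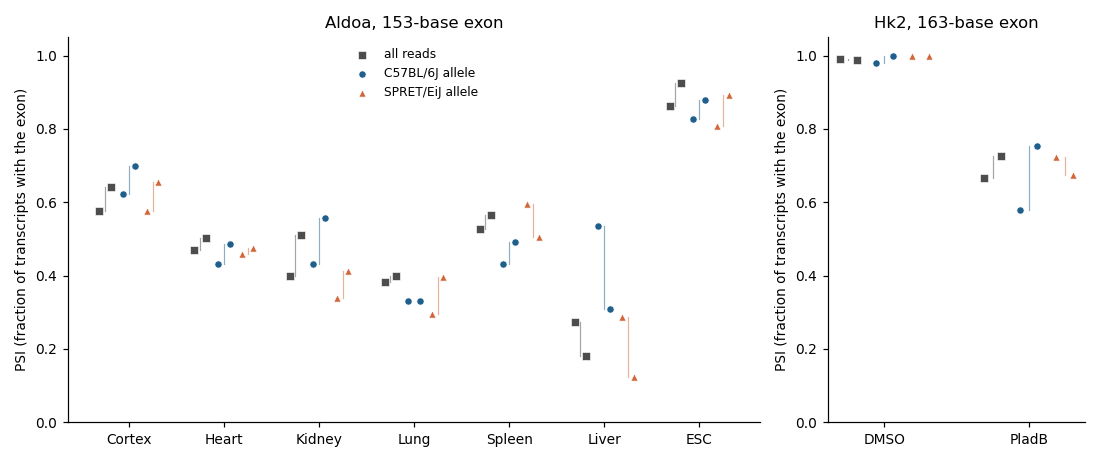
PSI (0 to 1) of the 153-base Aldoa exon in 7 tissues and of the 163-base Hk2 exon in DMSO and PladB fibroblasts, for 2 libraries per group, from all reads (squares) and from the C57BL/6J (circles) and SPRET/EiJ (triangles) alleles. Aldoa lies between 0.863 and 0.926 in ESC and at 0.274 and 0.180 in liver, and Hk2 falls from 0.990 and 0.989 with DMSO to 0.667 and 0.727 with PladB.

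The other tested exons differed little between tissues. An Aldoc exon (chr11:78325935-78326134) had a PSI of 0.963 and 0.961 in cortex over 20133 and 19343 inclusion reads and of 0.968 and 0.970 in kidney, with a switch score of 0.038 (adjusted p = 0.642). A Pklr exon (chr3:89137609-89137686) was mostly skipped, with a PSI of 0.093 and 0.098 in kidney and of 0.226 and 0.122 in liver. Its skipping reads numbered 34 and 37 in kidney and 41 and 43 in liver, so the switch score of 0.079 (adjusted p = 0.282) was measured at low depth. None of the Hk1, Hk2, Pfkl and Pfkm events entered the test across tissues. An Hk1 exon (chr10:62291975-62292043) was skipped in nearly all transcripts of 6 tissues, with mean PSI between 0.018 and 0.031. A Pfkm exon measured between distant neighbours had reads enough in cortex alone, where its PSI was 1.000 and 0.550, and against its nearer neighbours the same exon (chr15:98126304-98126453) had a PSI of 0.999 and 1.000.

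Between alleles, 35 tests of member exons against skipping were possible in the 9 conditions. By the quasi-binomial model 0 of them passed both limits, with 6 at an unadjusted p under 0.05 and 0 when the prior was taken from all events, against 8.36% of all events tested over the conditions (from 0.457% in ESC to 14.9% in DMSO); with the library as a block 1 passed, against 10.9%. The Aldoa exon in kidney was the nearest: its PSI was 0.432 and 0.556 on the C57BL/6J allele and 0.340 and 0.413 on the SPRET/EiJ allele, a difference of 0.118 that missed the threshold (adjusted p = 0.119) and passed it with the library as a block (adjusted p = 0.0256, where 10.1% of all kidney events were called, against 9.18% without the block). Over all alternatives that adjusted p ranged from 0.0256 to 0.673. In liver the same exon had the largest allelic gap, 0.535 and 0.308 against 0.287 and 0.123, a difference of 0.216 over 33 and 34 C57BL/6J reads (adjusted p = 0.220). In spleen the gap was -0.087 (adjusted p = 0.518). Of 6 member events in 2 or more tissues, 0 passed the test of an allele effect that differs between tissues, with 0 at an unadjusted p under 0.05, against 0.0835% of all events tested. With the library as a block the Aldoa exon had an unadjusted p of 0.0387 in that test (adjusted p = 0.541), and the other 5 stayed above 0.05 unadjusted. In DMSO fibroblasts, where this Aldoa exon was below the tested range, its PSI was 0.099 and 0.085 on C57BL/6J and 0.028 and 0.025 on SPRET/EiJ.

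In the fibroblast line, Pkm and Aldoa were the most abundant of the members, and Pklr stayed below the level tested. With DMSO, Pkm stood at 1849 and 1800 TPM, Aldoa at 622 and 622 TPM, Pfkl at 82.2 and 82.8 TPM, Pfkm at 59.7 and 57.6 TPM, Hk1 at 58.7 and 56.5 TPM, Hk2 at 15.4 and 15.5 TPM and Aldoc at 5.94 and 6.41 TPM. Pklr ranged from 0.00609 to 0.0855 TPM in the 4 libraries. Pkm made up all but a trace of pyruvate kinase TPM, with 46434 reads of exon 10 and 9109 of exon 9 in the first DMSO library.

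After 4 h of PladB, 5 of the 7 members tested differed in TPM (1 higher and 4 lower, at an adjusted p of 0.05 with no fold limit), but TPM is a share of each library and most genes were lower: of 13577 genes 89% were called, 15.6% were called higher and 73.4% lower, with a median log2 difference of -1.15. Hk2 went from 15.4 and 15.5 TPM to 6.13 and 7.42 TPM (log2 difference -1.18, SE 0.10, adjusted p = 0.000221), which is -0.03 relative to the median of all genes. Pfkm (-0.54), Hk1 (-0.51) and Pfkl (-0.43) were lower in TPM and stood 0.61, 0.65 and 0.72 above that median. Pkm went to 2274 and 2125 TPM (log2 difference 0.27, SE 0.04, adjusted p = 0.00301), and Aldoa (-0.02, adjusted p = 0.478) and Aldoc (0.06, adjusted p = 0.478) did not pass. The median of the members was -0.43.

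Centring the libraries on their medians turned those directions. All 7 tested members were then higher with PladB, from 0.26 for Hk2 (adjusted p = 0.0398) to 1.72 for Pkm, while of all genes 51.4% were called higher and 36.2% lower. The median log2 difference of all genes was 0.29 in that setting, so Hk2 lay just below the median gene.

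**Figure D5:**
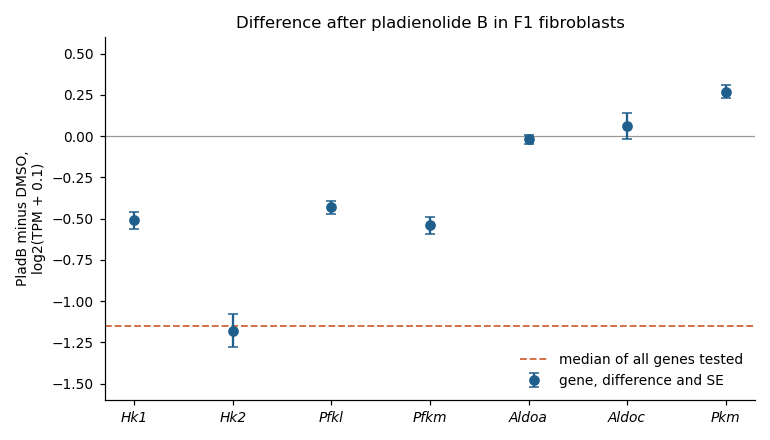
Difference in log2(TPM + 0.1), PladB minus DMSO, for the 7 members tested (points, with SE as error bars, 2 libraries per group) and the median of all 13577 genes tested (dashed line, -1.15). Hk2 lies at the median of all genes, and the other 6 lie above it.

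Of the 23 other genes of the pathway, 18 were tested after PladB, 5 of them higher and 9 lower in TPM, with a median of -0.47. The largest decreases were in regulators and transporters of glucose use. Pfkfb3, whose product makes the activator of phosphofructokinase, went from 30.3 and 29.5 TPM to 1.97 and 2.39 TPM (log2 difference -3.72, SE 0.10, adjusted p = 4.94e-06), and Slc2a1, the basal glucose transporter, from 84.2 and 79.8 TPM to 7.76 and 8.85 TPM (-3.29, SE 0.08, adjusted p = 3.96e-06). The other Pfkfb genes were lower too, with log2 differences of -3.03 for Pfkfb1, -2.58 for Pfkfb4 and -2.37 for Pfkfb2, and so were Eno2 (-1.99), Slc2a3 (-1.98), Pfkp (-0.97) and Pgam2 (-0.69), the last 2 by less than the median of all genes. The 5 that were higher carry out steps in the lower part of the pathway: Gapdh (0.78), Pgk1 (0.28), Pgam1 (0.19), Eno1 (0.18) and Ldhb (0.10). Gapdh, Pgk1, Pgam1 and Eno1, like Aldoa and Pkm, have near-identical processed copies elsewhere in the genome, and how reads that match both were placed was not tested, so their levels are uncertain.

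PladB also changed the splicing of Hk2. The exon at chr6:82760104-82760266 (163 bases, minus strand), whose upstream neighbour ends at 82774454, the start of the gene as annotated, had a PSI of 0.990 and 0.989 with DMSO and of 0.667 and 0.727 with PladB. The PladB libraries lay below both DMSO libraries. Skipping reads rose from 2 and 2 to 42 and 50, while inclusion reads went from 390 and 355 to 168 and 266. The difference was 0.293 lower with PladB (adjusted p = 8.01e-09), and the difference, PladB minus DMSO, stayed between -0.323 and -0.263 over all alternatives. This was the single member event that could be tested, against 50.9% of all events called; with the events near 0 or 1 kept, 41 member events were tested and 1 passed, this exon, against 8.43% of all events. On the alleles, PladB gave a PSI of 0.580 and 0.752 for C57BL/6J and 0.722 and 0.673 for SPRET/EiJ, which overlapped (difference -0.032, adjusted p = 0.910). In heart and ESC, the tissues of highest Hk2 TPM, the same exon was included at a PSI of at least 0.978.

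The exon 9 share of Pkm moved little with PladB, from 16.4% and 16.3% to 19.4% and 18.9%. The difference of 2.85 points passed the p-value (adjusted p = 3.65e-08) and not the limit of 10 points. Tests of this share with PladB, between treatments and between alleles, were added and not planned. On both alleles the share was higher with PladB, at 25.6% and 24.7% on C57BL/6J and at 17.2% and 15.9% on SPRET/EiJ, and the alleles differed by 8.60 points (adjusted p = 3.94e-08). In the retained intron table a single member intron is listed, in Aldoa at chr7:126797549-126797643 (95 bases). It was retained in 0.703% and 0.477% of transcripts with DMSO and in 1.42% and 2.28% with PladB, too near 0 for the test, in which 66.1% of all introns tested were called. With such introns kept, where 38.2% of all introns were called, it had an adjusted p of 0.000499 at a change far below the limit of 0.1.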

How the data were processed

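F1 RNA-seq libraries were analysed from the deposited tables. Per the methods, the authors trimmed reads to a common length, aligned them with HISAT2 2.0.1 to both parental genomes (mm10 for C57BL/6J), assigned a read to an allele by its edit distances, and counted splice junctions with rMATS. The deposited expression values are TPM that the authors made from stranded featureCounts read counts, fractional for reads shared by genes. The deposited junction counts stand as 2 values per cell, taken as replicates by list position. The authors' length columns, a score here, set PSI. Their p-values and PSI differences are not used.

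limma 3.58.1 (R 4.3.3) was run on log2(TPM + 0.1) of genes with at least 1 TPM in 2 libraries of the comparison. Exons were tested with a quasi-binomial model whose dispersion was moderated over all autosomal events, with at least 20 reads per library and events above 0.9 or below 0.1 throughout left out; alleles also had to lie within 0.1 of all reads. P-values were adjusted (Benjamini-Hochberg) over all genes or events. Several forms of the moderation prior were tried: the first, from all events, was run on these data and seen; the one kept, from events with an information of at least 5, was chosen on simulated data, where across tissues 66% of PSI shifts of 0.2 and 97% of 0.4 were recovered with 4.68% false calls (3914 events), and in fibroblasts 36% and 82% (9929 events). For TPM, 75% of log2 shifts of 1.5 were recovered in 1 tissue of 7 (21925 genes). The organs came from the same 2 animals, but nothing used here says that a replicate number marks an animal: deviations of same-numbered libraries correlated at 0.03 to 0.17 between organs and at -0.04 to 0.03 between organs and ESC, so the numbers were not taken as pairs. The alleles of a library are paired by construction.

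Named were all 8 genes, called exons, Pkm exons 9 and 10, the 2 most alike genes of each, and the pathway genes of widest range or called after PladB. Members and lists were chosen with earlier results of these data known. Ranges of the summed junction counts per library are given with the results, and alternatives were other pseudocounts, filters, centring, blocks, priors and each library left out. Some genes of the lists are not reported here, and list counts and sums leave them out. No sequence is printed.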

Additional observations from a re-analysis of the deposited data

How the results depend on the processing

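Leaving out 1 library at a time gave 34 to 36 calls of 56 for TPM across tissues, 5 for TPM after PladB, 1 to 3 for exons across tissues, 1 for exons after PladB, and 0 for alleles, the interaction and introns. Exons across tissues gave 1 call where events near 0 or 1 were kept, and exons between alleles 1 call with the replicate block (the library as block). No other setting moved one of these 7 counts by over 1.5 times.

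With the replicate number as a block, which may or may not mark the animal that organs share, the counts were 36 for TPM across tissues, 5 for TPM after PladB and 2 for exons across tissues, as without it. Centring the libraries reversed Hk1 (0.94), Hk2 (0.26), Pfkl (1.02), Pfkm (0.90) and Aldoa (1.42) after PladB. In tissues it reversed Aldoc in liver (1.48), Pfkl in ESC (-0.23), Pkm in kidney (-0.01), and Hk1 (-0.09) and Hk2 (-0.10) in spleen. That setting subtracts each library's own median. The median log2 difference of all genes was then 0.29 after PladB, 0.26 in liver, -0.02 in ESC, -0.29 in kidney and -0.32 in spleen. Uncalled values near 0 also turned without 1 of the group's own libraries, with ranges of -0.17 to 0.43 for Pfkl in ESC, -0.12 to 0.04 for Pkm in spleen, and, for the allelic PSI gap of the Aldoa exon, -0.028 to 0.012 in heart, -0.065 to 0.035 in lung and -0.014 to 0.021 in ESC. Groups of 2 libraries and, for alleles, few assigned reads limit what could be seen.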

Other observations

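The allelic junction reads of a gene, summed over its SE events (which share junctions, so the sums are descriptions), leaned to 1 allele in some tissue for most members. Pfkm in the ESC clones gave 84.1% and 88.9% of its allelic reads to C57BL/6J, over 1626 and 1662 C57BL/6J reads, against 47.8% to 51.8% on average in cortex, heart, kidney and spleen. Hk1 gave 66.9% and 67.5% to C57BL/6J in heart and 44.3% to 53.1% on average in the other tissues with a value. Pklr in liver gave 36.0% and 39.3% to C57BL/6J, against 53.2% and 48.5% in kidney and 52.2% and 52.0% in spleen. Pfkl in heart gave 31.3% and 32.9%. Aldoc leaned to SPRET/EiJ in spleen (30.4% and 33.5% C57BL/6J) and in DMSO fibroblasts (24.6% and 28.9%), and to C57BL/6J in kidney (60.5% and 61.5%). Hk2 gave 65.0% and 58.7% to C57BL/6J in the ESC clones and 35.5% and 42.2% in PladB fibroblasts. Aldoa stayed between 44.9% and 51.6% in every library. These shares were not tested, and the part of read assignment in them was not tested.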
